A study of Homo sapiens with 12 samples.

Results

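The TXNIP and thioredoxin system was followed through 9 genes in the RNA-seq libraries: TXNIP, the arrestin-domain genes ARRDC1, ARRDC3 and ARRDC4, the transcription factor genes MLX and MLXIP, and the thioredoxin genes TXN, TXN2 and TXNRD1. They were taken by symbol from the count table, and all 9 were found among its 25370 genes. The choice of these genes had been made with fold changes against vehicle already known, so they were in effect selected on those contrasts, and their values against vehicle are given as a description. Where their places under the threshold used for all genes are counted, no p is given and nothing is supported by the count. The cells were T47D, a human breast carcinoma line that expresses the estrogen receptor, in 4 groups of 3 libraries lettered a, b and c. Cells received vehicle, anastrozole at 10 nM, E2 at 0.1 nM, or both agents together at those doses. Anastrozole is a nonsteroidal inhibitor of aromatase, and E2 is 17β-estradiol. All groups had been kept in medium with 5% charcoal-stripped serum for 48 h and then without serum for 24 h, so vehicle cells were also starved of steroid and of serum. The labels give 12 h of treatment, while the methods of the study name a longer time. A single cell line was used, and nothing in the labels says that the 3 libraries of a group came from separate cultures, so p-values measure the spread between libraries, which may be technical.

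TXNIP encodes thioredoxin-interacting protein, an alpha-arrestin that binds reduced thioredoxin and lowers the uptake of glucose. Its transcription is driven by a pair of glucose-sensing basic helix-loop-helix proteins, MLXIP (also called MondoA) and its dimer partner MLX, which bind carbohydrate response elements made of E-box-like motifs. ARRDC4 is another well-known target of that pair. ARRDC1, ARRDC3 and ARRDC4 are relatives of TXNIP in the alpha-arrestin family and act as adaptors that bring NEDD4-family ubiquitin ligases to membrane proteins. TXN is the cytosolic thioredoxin, TXN2 the mitochondrial one, and TXNRD1 the cytosolic reductase that restores thioredoxin with electrons from NADPH.

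The promoters of TXNIP, ARRDC4, ARRDC3 and ARRDC1 are shown so that they can be compared for the E-box-like motifs that the MLX pair binds. Windows of 250 bases before the transcription start came from RefSeq (GRCh38.p14), and each printed window was found exactly once in GRCh37, the build of the counts, whose positions are given. They were searched on both strands for CACGNG, the core of a carbohydrate response element, and the matches are in capitals. In the TXNIP window (chr1:145438240-145438489, plus strand) 4 matches began 163, 88, 77 and 55 bases before the start, and those at 88 and 77 are separated by 5 bases. In the ARRDC4 window (chr15:98503683-98503932, plus strand) there were matches at 3 positions, 1 of them the full E-box CACGTG at 210 bases before the start. Those at 142 and 140 overlap, since CACGCGTG holds a match on each strand. No match was found in the window before the 5′ end of ARRDC3 (chr5:90679135-90679384, minus strand) or of ARRDC1 (chr9:140499888-140500137, plus strand).
TXNIP: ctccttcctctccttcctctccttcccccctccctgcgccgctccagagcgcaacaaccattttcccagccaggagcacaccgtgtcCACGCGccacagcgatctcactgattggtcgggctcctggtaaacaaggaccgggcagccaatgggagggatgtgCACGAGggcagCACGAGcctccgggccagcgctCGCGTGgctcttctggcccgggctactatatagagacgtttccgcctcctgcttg
ARRDC4: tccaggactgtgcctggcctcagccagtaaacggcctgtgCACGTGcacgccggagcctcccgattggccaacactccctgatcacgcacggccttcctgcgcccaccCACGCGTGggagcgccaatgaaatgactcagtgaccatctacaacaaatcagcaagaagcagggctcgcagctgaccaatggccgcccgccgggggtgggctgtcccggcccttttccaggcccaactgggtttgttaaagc
ARRDC3: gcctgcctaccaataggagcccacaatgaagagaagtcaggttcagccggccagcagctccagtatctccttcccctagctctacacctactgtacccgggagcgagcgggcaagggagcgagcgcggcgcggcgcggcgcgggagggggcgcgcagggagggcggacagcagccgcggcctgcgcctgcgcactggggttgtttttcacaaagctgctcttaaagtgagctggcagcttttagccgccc
ARRDC1: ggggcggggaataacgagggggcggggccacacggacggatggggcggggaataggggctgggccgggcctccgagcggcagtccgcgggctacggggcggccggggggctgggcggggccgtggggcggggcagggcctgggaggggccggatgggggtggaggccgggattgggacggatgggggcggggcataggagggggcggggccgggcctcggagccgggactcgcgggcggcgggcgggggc

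At least 1 match was present in 26.666% of the 35116 RefSeq promoter windows, matches at 3 or more positions in 1.46% and at 4 or more in 0.382%. Overlapping positions were counted separately here too. CACGTG alone was in 6.345% of windows, and a pair of CACGNG matches with 5 bases between them in 0.0655%. One window each of MLX and TXN held 1 match, that of MLX being CACGTG at 50 bases before the start. MLXIP had none, the other ARRDC3 window and both TXNRD1 windows had 1 each, the other TXNIP window had none, and for TXN2 no window was searched. AGGTCA, one arm of the estrogen response element, present in 12.08% of windows, and the full element with both arms, present in 0.04%, were in no window of these genes. The letters TGACNNNGC, the core of the element bound by NRF2, were in both windows of TXNRD1 and in 10.907% of all windows. These matches describe the sequence and say nothing about binding in these cells.

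Reads counted on genes numbered from 9914253 to 17009776 in a library, with a median of 13538621. Levels are given as CPM, counts scaled to a common library total after TMM normalization (the trimmed mean of M values), and 3 reads correspond to between 0.177 and 0.303 CPM. The cells expressed the luminal markers they should, with vehicle means of 3013 CPM for KRT19 and 182 CPM for ESR1, while PTPRC, CD3E, PECAM1, COL1A2 and KRT5 had between 0 and 3 reads in every library. The luminal list moved between groups: of its 9 genes E2 lowered ESR1 (-0.14, adjusted p = 0.0038), FOXA1 (-0.14), KRT8 (-0.10), KRT19 (-0.16) and CDH1 (-0.08), of which ESR1 (-0.18), FOXA1 (-0.14) and CDH1 (-0.08) also passed with the GC trend removed, and anastrozole lowered PGR (-0.13, adjusted p = 0.026, and -0.18 with the trend removed). PGR was also lower with anastrozole than with E2 (-0.19, adjusted p = 7.3e-06), KRT19 higher with both agents than with E2 (0.11, adjusted p = 0.0017), and KRT8 and KRT19 higher in the interaction, of which PGR alone passed with the trend removed. Only with the trend removed did GATA3 pass as higher with anastrozole (0.12), ESR1 (0.13) and FOXA1 (0.12) as higher with anastrozole than with E2, and PGR as higher with both agents than with anastrozole (0.17) and in the interaction (0.18). The part of these shifts in the results was not tested. Of the other markers of cell types not named in the labels, KRT14 (0.152 to 0.643 CPM) and TP63 (1.05 to 2.33 CPM) were low in all 12 libraries. COL1A1, a collagen gene of fibroblasts, stood at 94.0 ± 2.17 CPM in vehicle, 88.9 ± 4.18 with anastrozole, 86.7 ± 5.82 with E2 and 97.8 ± 2.82 with both (SD, n = 3). It was higher with both agents than with E2 (0.17 ± 0.041 on the log2 scale, edgeR adjusted p = 0.0017), and in the interaction (0.25 ± 0.067, adjusted p = 0.0039), though in neither with the GC trend removed (0.08, adjusted p = 0.54, and 0.06, adjusted p = 0.76), and its part in the results was not tested. In counts relative to a library's total, fewer cells expressing a gene and less of its RNA per cell cannot be told apart.

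Per kilobase of exon, TXN was the most abundant of the 9 genes in vehicle cells at 192 ± 9.74 CPM per kb (SD, n = 3). TXNIP followed at 102 ± 1.47 and ARRDC1 at 51.4 ± 1.83 CPM per kb. TXN2 at 38.2 ± 1.76 and TXNRD1 at 37.2 ± 0.619 CPM per kb did not differ beyond their spread. MLX stood at 21.4 ± 0.481, ARRDC3 at 13.8 ± 0.437, MLXIP at 6.75 ± 0.249 and ARRDC4 at 4.43 ± 0.441 CPM per kb. Apart from TXN2 and TXNRD1, neighbours in this order were separated by more than the sum of their SDs, which hold only the spread between libraries. The exon length was that of all GENCODE exons of a gene merged, from 1.01 kb for TXN to 13.905 kb for MLXIP. The annotation used for counting is not given, and other lengths could change this order. Among all genes tested, mean CPM placed TXNIP in vehicle cells at percentile 98.28 and ARRDC4, the lowest of the 9, at percentile 57.96.

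**Figure D1:**
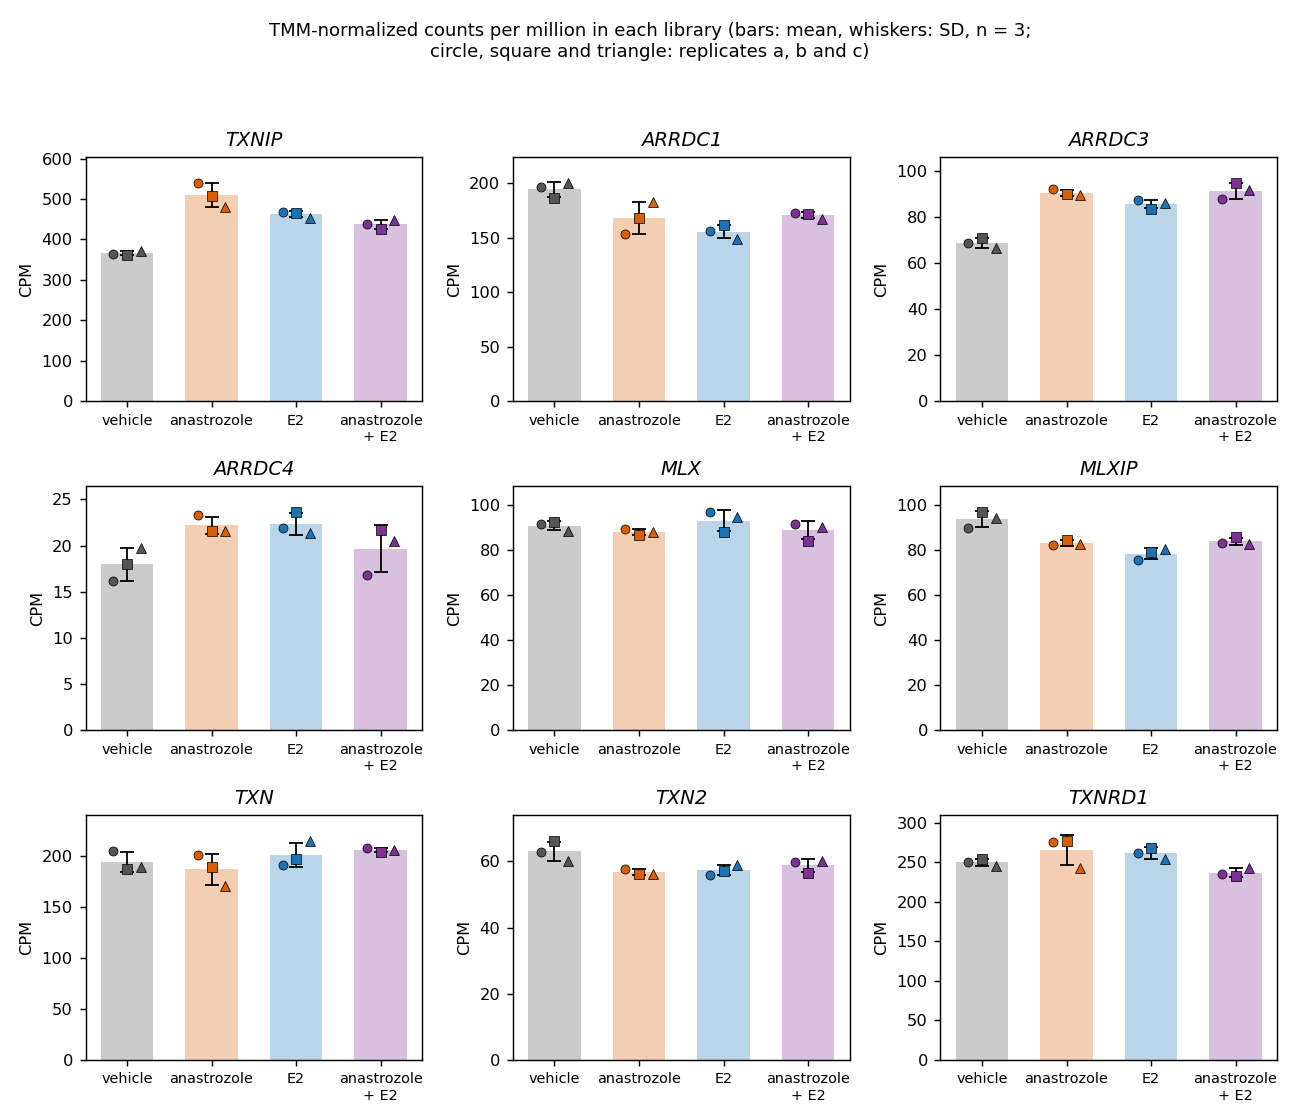
TMM-normalized counts in CPM (vertical axes, each from 0) of the 9 genes in vehicle, anastrozole, E2 and anastrozole plus E2. Bars are means, whiskers SDs over 3 libraries, and the circle, square and triangle are libraries a, b and c. For TXNIP the 4 groups do not overlap, from 361 to 371 CPM in vehicle up to 480 to 540 CPM after anastrozole, while for MLX all groups overlap.

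TXNIP was higher in all 3 treated groups than in vehicle. Vehicle replicates a, b and c measured 365, 361 and 371 CPM, against 540, 508 and 480 CPM with anastrozole. E2 libraries held 469, 466 and 453 CPM, and libraries with both agents 438, 426 and 448 CPM. No library of one group fell within the range of another, and the order from low to high was vehicle, both agents, E2, anastrozole. The log2 fold change against vehicle was 0.48 ± 0.043 (SE) for anastrozole, 0.34 ± 0.032 for E2 and 0.26 ± 0.034 for both, or ratios of 1.39, 1.26 and 1.20. TXNIP (ENSG00000265972) lies on chromosome 1 from 145438490 to 145442635 on the plus strand of GRCh37.

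ARRDC3, an adaptor in the turnover of beta-adrenergic receptors, also stood apart from vehicle in each treated group. Vehicle libraries had 68.8, 71.2 and 66.8 CPM, anastrozole 92.1, 90.0 and 89.6 CPM, E2 87.3, 83.6 and 86.1 CPM, and both agents 87.9, 94.9 and 91.9 CPM. The vehicle range lay below the others, E2 lay below the remaining treated groups, and anastrozole with and without E2 overlapped. Its log2 fold changes were 0.39 ± 0.057 for anastrozole, 0.31 ± 0.048 for E2 and 0.41 ± 0.048 for both. ARRDC3 (ENSG00000113369, chromosome 5 from 90664448 to 90679134, minus strand) shares 2.91% of its exon bases with the antisense gene ARRDC3-AS1. Reads on those bases may be missing from its count if strand was not used.

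ARRDC4 was a low-count gene with 200 to 400 reads per library. It measured 16.2, 18.0 and 19.8 CPM in vehicle, 23.3, 21.6 and 21.6 CPM after anastrozole, 21.9, 23.6 and 21.4 CPM with E2, and 16.8, 21.6 and 20.5 CPM with both. Anastrozole and E2 alone lay above the vehicle range, but the libraries with both agents overlapped all other groups. The log2 fold changes were 0.31 ± 0.098, 0.31 ± 0.088 and 0.12 ± 0.088 in that order. The value with both agents ranged from 0.05 to 0.23 when 1 library was left out. The gene (ENSG00000140450) is at chromosome 15 from 98503933 to 98517063 on the plus strand.

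ARRDC1, which is known for recruiting the budding machinery to the plasma membrane, had the opposite sign. Its levels were 197, 187 and 200 CPM in vehicle, 154, 168 and 182 CPM after anastrozole, 156, 162 and 149 CPM with E2, and 173, 172 and 168 CPM with both. Every treated library was below every vehicle library, and the anastrozole libraries spread most, overlapping the other treated groups. The log2 fold change was -0.21 ± 0.047 for anastrozole, -0.32 ± 0.037 for E2 and -0.19 ± 0.038 for both. ARRDC1 (ENSG00000197070, chromosome 9 from 140500137 to 140509812, plus strand) had the highest exon GC content of the 9 genes, 63.2%.

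Of the MLX pair, MLXIP was lower in all treated groups and MLX kept to one range. MLXIP had 90.1, 96.9 and 94.5 CPM in vehicle, 82.2, 84.8 and 82.7 CPM after anastrozole, 75.8, 79.2 and 80.5 CPM with E2, and 83.4, 85.9 and 82.9 CPM with both. The vehicle libraries were above all others and the E2 libraries below all others. Its log2 fold changes were -0.17 ± 0.056, -0.26 ± 0.046 and -0.16 ± 0.046 for anastrozole, E2 and both. MLX ranged from 84.3 to 96.9 CPM over the 12 libraries with overlap between every pair of groups, and its log2 fold changes were -0.05 ± 0.055, 0.03 ± 0.045 and -0.03 ± 0.046. MLX (ENSG00000108788, chromosome 17 from 40719090 to 40725257) shares 18.21% of its exon bases with PSMC3IP on the opposite strand, so its counts are uncertain. MLXIP (ENSG00000175727) lies on chromosome 12 from 122516628 to 122631894, plus strand.

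The thioredoxin genes differed less from vehicle. TXN had 205, 187 and 189 CPM in vehicle, 201, 189 and 171 CPM after anastrozole, 191, 197 and 214 CPM with E2, and 208, 203 and 206 CPM with both agents. Each treated group overlapped vehicle, and the libraries with both agents lay above all anastrozole libraries. TXN2 measured 63.0 ± 2.90 CPM in vehicle against 56.7 ± 0.953, 57.3 ± 1.54 and 58.8 ± 2.06 CPM in the treated groups, each below the vehicle range, with log2 fold changes of -0.15 ± 0.062, -0.14 ± 0.053 and -0.10 ± 0.052. TXNRD1 had 251, 254 and 245 CPM in vehicle, 276, 277 and 243 CPM after anastrozole, 262, 269 and 254 CPM with E2, and 235, 233 and 243 CPM with both. Anastrozole replicate c stood apart from replicates a and b of its group, the E2 libraries lay just above vehicle, and the libraries with both agents were below it. TXN (ENSG00000136810) lies on chromosome 9 from 113006090 to 113018787 and has processed pseudogenes, so its count may lack reads that map to more than one place. TXN2 (ENSG00000100348) is on chromosome 22 from 36863093 to 36877687, and TXNRD1 (ENSG00000198431) on chromosome 12 from 104609557 to 104744085.

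**Figure D2:**
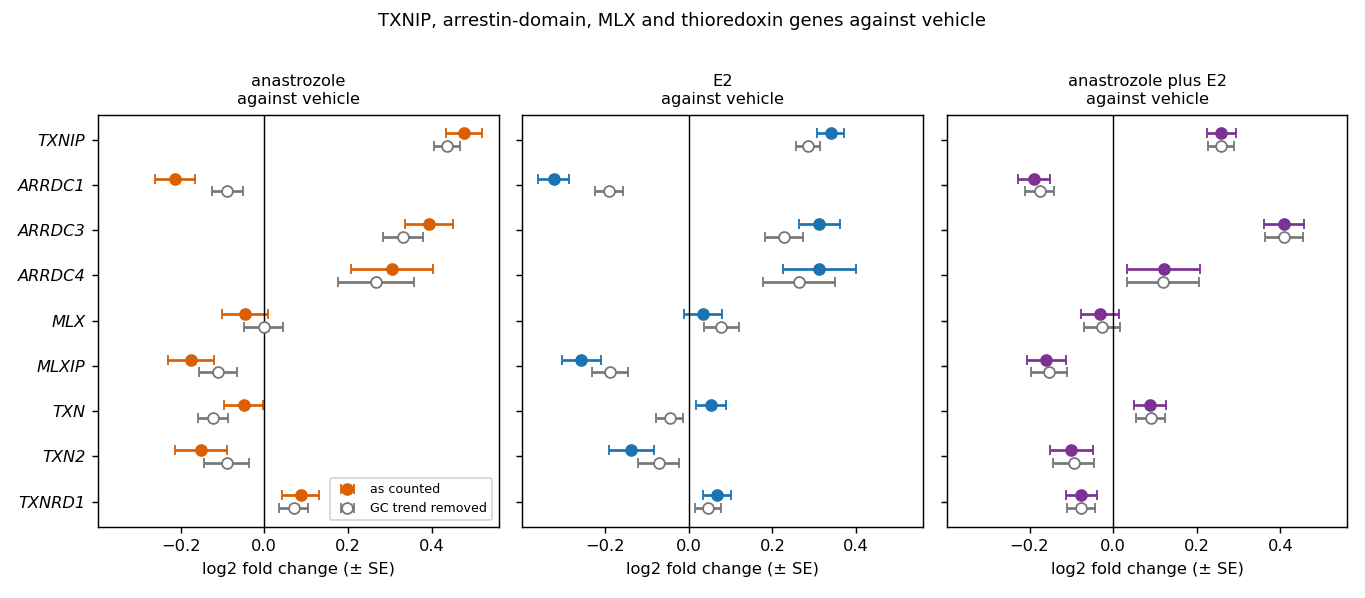
Log2 fold change against vehicle (horizontal axis, point and SE from the 6 libraries of each comparison) of the 9 genes for anastrozole, E2 and both agents. Filled points are from the counts as deposited and open points from a fit in which each library's trend with GC content was removed, which moves ARRDC1 with anastrozole from -0.21 to -0.09.

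Across all 21132 genes tested with edgeR's quasi-likelihood test (adjusted p under 0.05 after Benjamini-Hochberg adjustment), anastrozole raised 1.4% and lowered 2.27%. Of the 9 genes 3 lay past this threshold as higher (TXNIP, ARRDC3, ARRDC4) and 2 as lower (ARRDC1, MLXIP). E2 raised 6.06% and lowered 5.95% of all genes, and the same 3 and 2 genes lay past it. Both agents raised 2.71% and lowered 2.33%, with TXNIP and ARRDC3 past it as higher and ARRDC1 and MLXIP as lower. Nothing can be read from these counts, since the genes had been chosen for their fold changes against vehicle, and the 3 comparisons share the vehicle libraries. The median log2 fold change of the 9 genes was -0.05, 0.05 and -0.03 in the 3 comparisons, beside medians of 0 over all genes. With anastrozole, leaving out any 1 of vehicle a, b or c or anastrozole a or b gave ARRDC4 0.24 to 0.38 and MLXIP -0.20 to -0.15, short of the threshold, as ARRDC1 was without vehicle c (-0.19) or anastrozole a (-0.15). TXNRD1 was at 0.15 without anastrozole c, past the threshold as higher. With both agents TXN was also past it as higher without vehicle a (0.13). With E2, ARRDC4 was short of it without vehicle a (0.24) or E2 b (0.27), and with both agents MLXIP was without vehicle b (-0.13), vehicle c (-0.15) or replicate a (-0.15) or c (-0.15) of the treated group.

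Fold changes followed the GC content of exons in these libraries, in step with the sign of several of the 9 genes. Across 10845 genes of at least 3 log2 CPM on average, Spearman's rho between fold change against vehicle and GC content was -0.533 for anastrozole, -0.548 for E2 and -0.0263 for both agents. Within libraries, the rho of deviation from the mean with GC content was 0.463, 0.0588 and 0.44 for vehicle a, b and c, -0.607, -0.369 and 0.257 with anastrozole, -0.498 to -0.323 with E2 and 0.339 to 0.427 with both. ARRDC1 (63.2% GC) and MLXIP (55.9%) are richer in GC than TXNIP (42.9%), ARRDC4 (43.4%), TXNRD1 (46.3%), ARRDC3 (38.8%) and TXN (36.7%). With each library's GC trend removed, TXNIP was at 0.44 ± 0.032, 0.29 ± 0.028 and 0.26 ± 0.030 and ARRDC3 at 0.33 ± 0.048, 0.23 ± 0.045 and 0.41 ± 0.045 for anastrozole, E2 and both. ARRDC4 kept 0.27 ± 0.091, 0.26 ± 0.086 and 0.12 ± 0.087. ARRDC1 went to -0.09 ± 0.037, -0.19 ± 0.034 and -0.18 ± 0.035, and MLXIP to -0.11 ± 0.046, -0.19 ± 0.043 and -0.15 ± 0.043, the anastrozole values of ARRDC1, ARRDC4 and MLXIP then being short of the threshold. TXN with anastrozole went from -0.05 to -0.12, past the threshold as lower, and with E2 it changed from 0.05 to -0.05. Over all genes the shares higher and lower became 1.53% and 1.37% for anastrozole, 3.97% and 3.56% for E2, and 3.36% and 2.66% for both agents. A real change that runs with GC content would be taken out along with the trend, and the part of GC content in these results was not tested further.

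**Figure D3:**
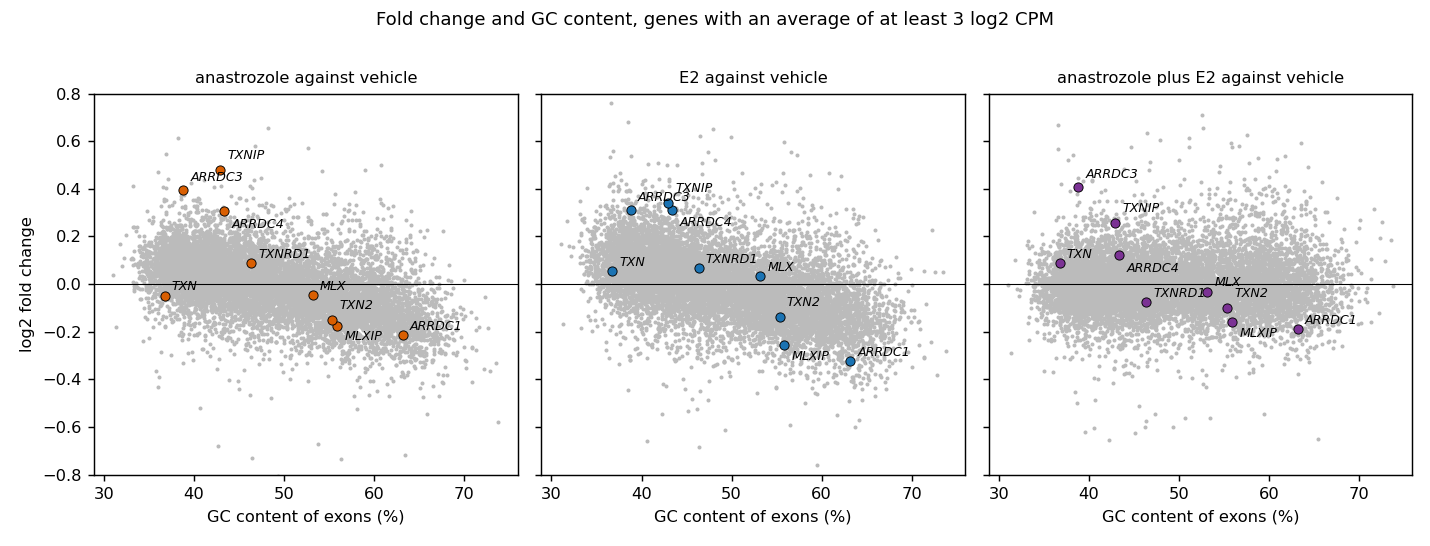
Log2 fold change against vehicle (vertical axis, from -0.8 to 0.8) by GC content of exons in percent (horizontal axis) for 10845 genes of at least 3 log2 CPM on average, with the 9 genes marked; 9 genes beyond the axis in some panel are not shown. Fold change falls with GC content for anastrozole and E2 (rho -0.533 and -0.548) and not for both agents (-0.0263), and TXNIP and ARRDC3 lie in the upper part of the genes of like GC content in all panels.

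Contrasts between the treated groups asked whether the agents differ from each other and whether adding one changes the level reached with the other. They use no vehicle library, and the 9 genes were tested there over all genes, although the treated libraries had been part of the fold changes on which the genes were chosen. The adjusted p-values of the 9 genes there are thus not independent of that choice, and their counts beside all genes are a description.

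Adding E2 to anastrozole lowered TXNIP and TXNRD1. TXNIP fell by 0.22 ± 0.042 on the log2 scale (a ratio of 0.857, adjusted p = 3.2e-05), and every library with both agents was below every anastrozole library. The call held without any 1 library and with the GC trend removed (-0.18, adjusted p = 6.4e-06), and was lost in limma-voom (adjusted p = 0.066). TXNRD1 fell by 0.17 ± 0.043 (a ratio of 0.892, adjusted p = 0.0088), with anastrozole replicate c inside the range of the other group. That call was lost without anastrozole a (-0.13, adjusted p = 0.13), anastrozole b (-0.14, adjusted p = 0.22) or replicate b of the combination (-0.15, adjusted p = 0.14), and with filterByExpr (adjusted p = 0.064) or limma-voom (adjusted p = 0.22). TXN was 0.14 ± 0.043 higher with both agents and did not pass (adjusted p = 0.059). It passed with the GC trend removed (0.21, adjusted p = 7.3e-07), without anastrozole a (0.19, adjusted p = 0.0058), with library size alone (0.14, adjusted p = 0.037) and with all 12 libraries in the fit (0.14, adjusted p = 0.024). Its values without 1 library ranged from 0.07 to 0.19. Over all genes 1.71% rose and 1.18% fell in this contrast, against 0 and 2 of the 9, with a median log2 fold change of 0.01. After removal of the GC trend 1.03% rose and 0.989% fell.

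Adding anastrozole to E2 lowered TXNRD1 and raised ARRDC1. TXNRD1 fell by 0.14 ± 0.033 (a ratio of 0.905, adjusted p = 7e-04) with no overlap between the 3 E2 libraries and the 3 with both agents. This call held in all 15 alternatives, the lowest value of which was -0.16 and the highest -0.12. ARRDC1 rose by 0.13 ± 0.035 (a ratio of 1.10, adjusted p = 0.0049), again without overlap, but with the GC trend removed its change was 0.02 ± 0.034 (adjusted p = 0.95), and without E2 replicate c it was 0.10 (adjusted p = 0.12). In this contrast fold change followed GC content with a rho of 0.685. TXNIP differed by -0.08 ± 0.030 (adjusted p = 0.092), with a 95% interval from -0.14 to -0.02, and by -0.03 with the GC trend removed (adjusted p = 0.82). ARRDC3 (0.10, adjusted p = 0.16) and TXN (0.04, adjusted p = 0.66) did not pass as counted and did with the GC trend removed (0.18, adjusted p = 0.0027 and 0.14, adjusted p = 0.0068). ARRDC4 (-0.19 ± 0.077, adjusted p = 0.12) passed only without replicate b of the combination (-0.27, adjusted p = 0.048). Its values without 1 library ranged from -0.27 to -0.09. Over all genes 3.23% rose and 3.51% fell, beside 1 and 1 of the 9, and their median log2 fold change was 0.04. With the GC trend removed 0.435% rose and 0.445% fell, 186 genes in all against 1424 as counted.

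Between anastrozole and E2, each alone, the difference in TXNIP passed in the main test and not in most alternatives that left out a library or used another tool. Its level was 509 ± 29.8 CPM after anastrozole against 463 ± 8.18 CPM after E2 (SD, n = 3), a log2 difference of 0.15 ± 0.037 and a ratio of 1.11 (adjusted p = 0.012, edgeR). The size of this difference rests on anastrozole replicate a, without which it was 0.09 (adjusted p = 0.27), and the call was also lost without anastrozole b (0.15, adjusted p = 0.11), E2 a (0.15, adjusted p = 0.057), E2 b (0.15, adjusted p = 0.15) or E2 c (0.13, adjusted p = 0.29). It was lost too with filterByExpr (adjusted p = 0.069), DESeq2 (adjusted p = 0.15) and limma-voom (adjusted p = 0.23). With the GC trend removed the difference was 0.16 ± 0.030 (adjusted p = 2.8e-05). ARRDC1 differed by 0.12 ± 0.043 (adjusted p = 0.23) and TXN by -0.10 ± 0.041 (adjusted p = 0.38), and both passed without anastrozole a (0.17, adjusted p = 0.013 and -0.16, adjusted p = 0.02). Leaving out each library in turn gave 0.05 to 0.17 for ARRDC1 and -0.16 to -0.03 for TXN. The 95% interval was -0.17 to 0.17 for ARRDC4, -0.01 to 0.19 for ARRDC3 and -0.05 to 0.10 for TXNRD1, whose adjusted p was 1, 0.66 and 0.92. Of all genes 0.62% were higher and 0.705% lower with anastrozole, beside 1 and 0 of the 9, whose median log2 difference was 0.03. After removal of the GC trend the shares were 1.35% and 1.09%.

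**Figure D4:**
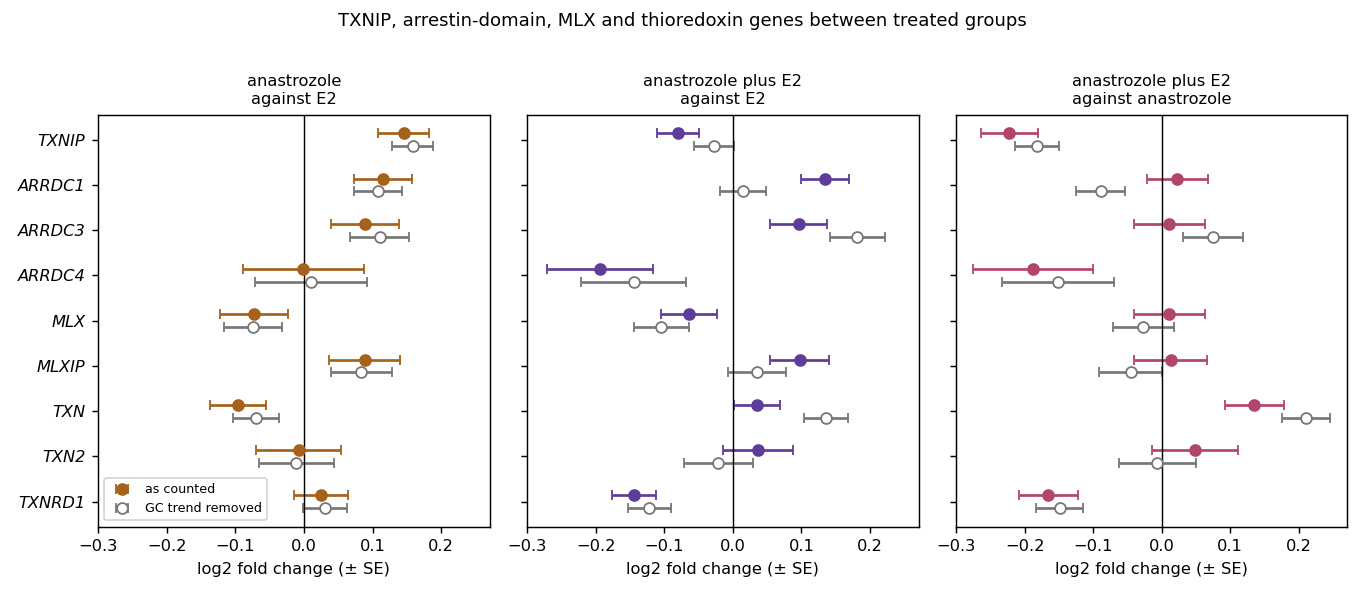
Log2 fold change (horizontal axis, point and SE) of the 9 genes between treated groups: anastrozole against E2, both agents against E2, and both agents against anastrozole. Filled points are from the counts as deposited and open points have each library's GC trend removed. TXNRD1 lies below 0 on both right-hand panels (-0.14 and -0.17), as TXNIP does against anastrozole (-0.22).

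The interaction compares the level with both agents with the sum of the separate changes on the log2 scale. For TXNIP it was -0.56 ± 0.051, the separate changes of 0.48 and 0.34 being followed by 0.26 with both agents. ARRDC4 gave -0.50 ± 0.12, ARRDC3 -0.30 ± 0.069, TXNRD1 -0.23 ± 0.055, ARRDC1 0.35 ± 0.058 and MLXIP 0.27 ± 0.069. Those 2 higher and 4 lower genes of the 9, past the threshold used for all genes, stand beside 5.93% and 4.93% of all genes, and are a description since the vehicle libraries enter. MLX (-0.02 ± 0.068), TXN (0.08 ± 0.057) and TXN2 (0.19 ± 0.079) made up the rest. The rho with GC content was 0.708, and with the trend removed TXNIP stood at -0.47 ± 0.042, ARRDC4 at -0.41 ± 0.12, TXNRD1 at -0.19 ± 0.046 and TXN at 0.26, while ARRDC3 (-0.15), ARRDC1 (0.10) and MLXIP (0.14) were short of the threshold. With the trend removed 1.24% of all genes were higher and 1.37% lower, 553 genes against 2295 as counted.

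Among the 9 genes, TXNIP and ARRDC3 had a Pearson correlation of log2 CPM of 0.832 over the 12 libraries and of -0.0265 once group means were removed. TXNIP and TXNRD1 had 0.509 over all libraries and 0.773 within groups, and TXNIP and ARRDC1 -0.766 and -0.619. Of the 11036 other genes of at least 3 log2 CPM, the 5 most like TXNIP were HSPA5 (r = 0.98), HSP90B1 (0.944), FAM13A (0.928), SAT1 (0.918) and LUC7L3 (0.917), and within groups HSPA5 kept 0.902. Their exon GC content, 38.1% to 44.2%, is close to that of TXNIP (42.9%). The 5 most like ARRDC1 were OPLAH (0.982), PLXNB2 (0.977), CELSR3 (0.976), TMEM132A (0.972) and FASN (0.971), whose exon GC content of 61.2% to 66.6% is close to that of ARRDC1 (63.2%). These correlations are descriptions over 12 libraries that share their groups and their GC trend.

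The same comparisons were made for 70 other genes of these pathways. Their lists were also chosen with earlier results of these data known, so their adjusted p-values and counts are not independent of that choice. Anastrozole raised 2 and lowered 3 of them, beside 1.4% and 2.27% of all genes, with a median log2 fold change of 0.0027. MXI1, a MAX partner that opposes MYC, rose from 55.5 ± 2.95 CPM in vehicle by 0.33 ± 0.062 (adjusted p = 3.1e-05), and HK2, which phosphorylates glucose on entry, rose by 0.17 ± 0.051 (adjusted p = 0.038). KEAP1, the inhibitor of NRF2, fell by 0.24 ± 0.074 (adjusted p = 0.037), MXD3, another MAX partner, by 0.22 ± 0.056 (adjusted p = 0.0075) and the peroxiredoxin PRDX5 by 0.18 ± 0.048 (adjusted p = 0.011). With the GC trend removed MXI1 (0.33) and HK2 (0.19) stayed called and the 3 lowered genes did not. KEAP1, HK2, MXD3 and PRDX5 were called neither in DESeq2 (adjusted p = 0.12, 0.078, 0.069 and 0.064) nor in limma-voom. The call of MXI1 held without any 1 library and was lost in limma-voom (adjusted p = 0.083). Those of the others were lost without vehicle a (PRDX5 -0.14, KEAP1 -0.24, HK2 0.19), vehicle b (HK2 0.16), vehicle c (MXD3 -0.17, PRDX5 -0.18, KEAP1 -0.21, HK2 0.16), anastrozole a (MXD3 -0.18, PRDX5 -0.15, KEAP1 -0.20, HK2 0.18) or anastrozole b (MXD3 -0.19, KEAP1 -0.25, HK2 0.15).

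E2 raised 6 and lowered 8 of the 70, beside 6.06% and 5.95% of all genes, with a median of 0.02. MXI1 rose by 0.39 ± 0.052 (adjusted p = 1.2e-11), HK2 by 0.26 ± 0.041 (adjusted p = 1.3e-08), the ubiquitin ligase WWP1, a partner of the arrestin-domain proteins, by 0.24 ± 0.038 (adjusted p = 6.7e-08), and NFE2L2, which encodes NRF2, by 0.20 ± 0.046 (adjusted p = 0.00059). The mitochondrial reductase TXNRD2 fell by 0.36 ± 0.085 (adjusted p = 0.00068), KEAP1 by 0.32 ± 0.063 (adjusted p = 1.4e-05) and the MAX partner MXD4 by 0.21 ± 0.046 (adjusted p = 0.00012). These 7 calls held without any 1 library, and all but that of MXD4 (-0.11) held with the GC trend removed. The other 7 were ITCH (0.14), another ligase of that family, and GCLC (0.17), a subunit of the enzyme that starts glutathione synthesis, which were higher, and MNT (-0.23), TXNDC17 (-0.22), PRDX5 (-0.14), PRDX2 (-0.14) and ARRB1 (-0.12), which were lower. Each of these calls was lost on leaving out some library, namely vehicle a (ARRB1 -0.11, ITCH 0.11, MNT -0.23, TXNDC17 -0.16, PRDX5 -0.10), vehicle c (ARRB1 -0.11, MNT -0.21, PRDX2 -0.12, GCLC 0.14), E2 a (ARRB1 -0.11, MNT -0.25, TXNDC17 -0.14, PRDX2 -0.11, GCLC 0.16), E2 b (ARRB1 -0.12, ITCH 0.12, MNT -0.25, GCLC 0.16) or E2 c (ARRB1 -0.12, MNT -0.20, PRDX2 -0.13). Of the 7, TXNDC17 alone was called with the GC trend removed.

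Both agents together raised 4 and lowered 2 of the 70, beside 2.71% and 2.33% of all genes, with a median of 0.02. MYC, whose protein competes for MAX, rose by 0.34 ± 0.056 (adjusted p = 3.7e-07), MXI1 by 0.29 ± 0.052 (adjusted p = 2.1e-06), HK2 by 0.23 ± 0.042 (adjusted p = 1.1e-05) and WWP1 by 0.18 ± 0.040 (adjusted p = 0.00028). KEAP1 fell by 0.24 ± 0.063 (adjusted p = 0.0063) and beta-arrestin gene ARRB1 by 0.18 ± 0.042 (adjusted p = 0.00075). Without vehicle c the KEAP1 call was lost (-0.20), and all 6 held with the GC trend removed. In limma-voom the calls of MXI1 (adjusted p = 0.06), WWP1 (adjusted p = 0.075) and KEAP1 (adjusted p = 0.071) were lost. KEAP1 was also lost in DESeq2 (adjusted p = 0.085). The MYC level was 42.4 ± 2.70 CPM in vehicle, and MYC was also higher with both agents than with E2 (0.23 ± 0.056, adjusted p = 0.002) or anastrozole (0.35 ± 0.068, adjusted p = 7.9e-05), calls that held without any 1 library.

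In the direct contrasts, both agents against E2 gave 2 higher and 2 lower, MYC and TXNRD2 (0.23 ± 0.078, adjusted p = 0.049) and ITCH (-0.12 ± 0.037, adjusted p = 0.019) and NFE2L2 (-0.14 ± 0.042, adjusted p = 0.014), beside 3.23% and 3.51% of all genes, with a median of 0.0053. Of these, TXNRD2 was lost without E2 a (0.27), E2 b (0.19), E2 c (0.22) or replicate a (0.20) or c (0.22) of the combination, ITCH without E2 b (-0.10) or combination a (-0.09), and NFE2L2 without E2 a (-0.12) or combination b (-0.14) or c (-0.13). With the GC trend removed MYC stayed called (0.20), and TXNRD2 (0.16, adjusted p = 0.48), ITCH (-0.05, adjusted p = 0.73) and NFE2L2 (-0.09, adjusted p = 0.46) did not. Both agents against anastrozole gave MYC and MXD3 (0.21 ± 0.052, adjusted p = 0.0052) higher and none lower, beside 1.71% and 1.18% of all genes, with a median of 0.03, and the MXD3 call was lost without anastrozole a (0.18) or b (0.18) or combination a (0.19) or b (0.21) and with the GC trend removed (0.13, adjusted p = 0.096), where MYC stayed called (0.32). Between anastrozole and E2 edgeR called 0 of the 70 at a median of -0.0083, while 8 had an unadjusted p under 0.05 and DESeq2 and limma-voom also called 0.

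Removing the GC trend also brought pathway genes past the threshold that were short of it as counted, named here after their values were seen. DDIT4, whose product inhibits mTORC1 signalling, was then higher with anastrozole (0.15, adjusted p = 0.00087, against 0.06 as counted) and with E2 (0.13, adjusted p = 0.001), and lower with both agents than with E2 (-0.11, adjusted p = 0.031) or anastrozole (-0.14, adjusted p = 0.0029). The peroxiredoxin PRDX1 (0.10) and the sulfiredoxin gene SRXN1 (0.15) passed as higher with E2. With both agents against E2, TXNDC17 (0.23) and PRDX6 (0.13) passed as higher and PRDX1 (-0.11) as lower, which with MYC and DDIT4 made 5 of the 70, beside 0.435% of all genes higher and 0.445% lower. WWP1 (0.12) and PRDX4 (0.15) passed as higher with both agents than with anastrozole, and the glutathione reductase gene GSR (0.22) with anastrozole than with E2.

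**Figure D5:**
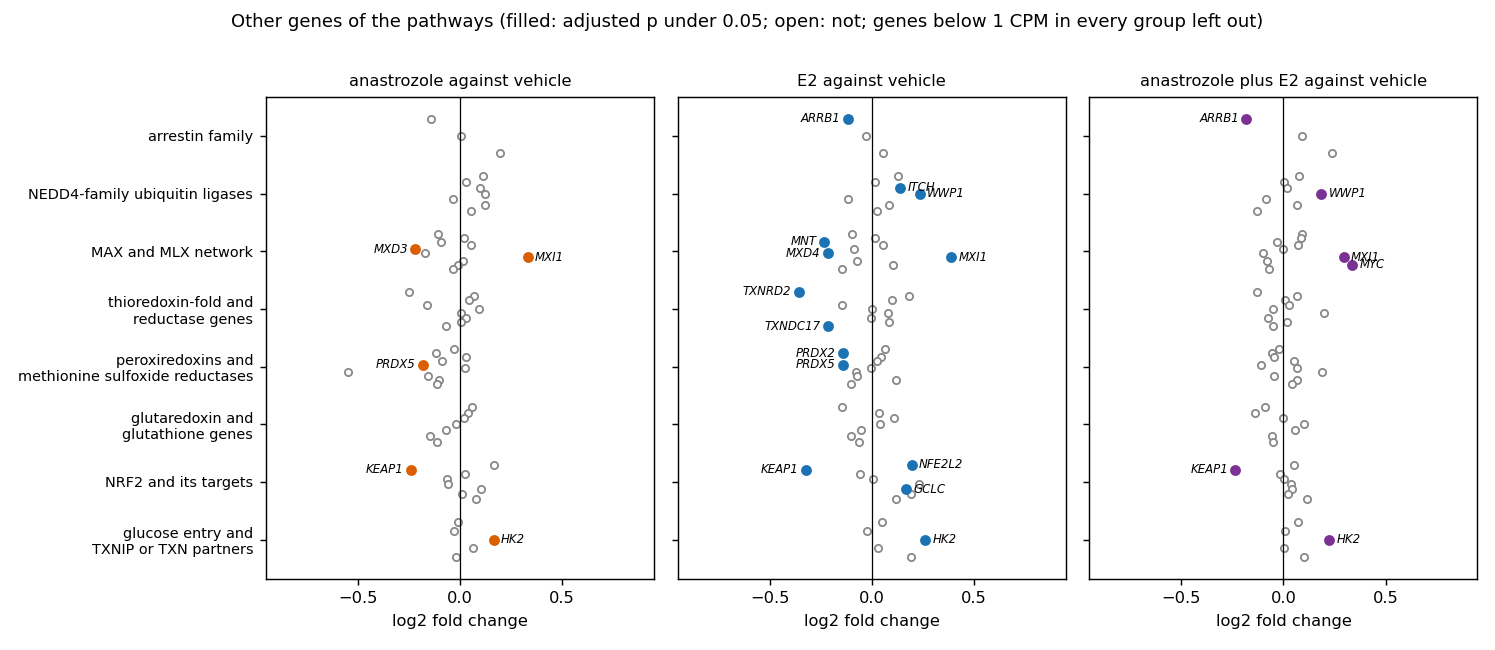
Log2 fold change against vehicle (horizontal axis) of 59 of the 70 listed pathway genes, by list (vertical axis), for anastrozole, E2 and both agents. Filled, named points have an adjusted p under 0.05 in edgeR, open points do not, and the 11 genes below 1 CPM in every group are left out. MXI1 and HK2 are filled on the higher side and KEAP1 on the lower side of each panel.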

How the data were processed

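The authors aligned reads to hg19 with TopHat2 2.0.14 and Bowtie2 2.2.6, counted them per gene with HTSeq and deposited whole-number counts without normalization. The HTSeq version, its strand setting and the gene annotation are not given in the sources used here, and the labels give polyA RNA where the methods describe total RNA libraries. Summary lines that name no gene, 66.5% to 67.3% of the reads of each library's column, were left out, as were 4238 genes without a count. Pairs of groups were fitted on their 6 libraries and the interaction on 12 with edgeR 4.0.16 in R 4.3.3 (TMM, robust quasi-likelihood fit, 2-sided F test), with p-values adjusted by Benjamini-Hochberg over 21132 genes and called under 0.05. SEs came from the size of the log2 fold change over the root of its F statistic. Precision was limited by depth (9914253 to 17009776 counts per library) and 3 libraries per group. Log2 CPM for correlations used a prior count of 2.

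The 9 genes, the lists of 70 pathway genes and the tests were chosen with earlier results of these data known. All 9 genes are named in each comparison with vehicle and in the interaction. Between treated groups those that passed and some that did not are named. Of the pathway genes those past the threshold are named, at most 5 per list and comparison. The genes most like TXNIP and ARRDC1 are the 5 of highest Pearson correlation. Alternatives were DESeq2's size factors, library size alone, filterByExpr, DESeq2 1.42.0, limma-voom (limma 3.58.1), all 12 libraries in each fit, a replicate block, removal of each library's lowess trend on GC content (span 0.5, genes of at least 3 log2 CPM), that trend with the block, and leaving out each library. Positions and GC content came from GENCODE mapped to GRCh37, in which 21539 genes were found by symbol and 1476 more by a former one. 1 further listed gene is not reported here.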

Additional observations from a re-analysis of the deposited data

Results flagged for a closer look

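In the interaction of anastrozole and E2 over 12 libraries, which asks whether the change with one agent differs with the presence of the other, 13 of the 70 listed pathway genes passed in edgeR (8 higher and 5 lower), beside 5.93% of all genes higher and 4.93% lower. The 9 genes had been chosen with the vehicle contrasts known, and the vehicle libraries enter the interaction, so their values are a description and no test of them is read. TXNIP was at -0.56, ARRDC4 at -0.50, ARRDC3 at -0.30 and TXNRD1 at -0.23, and ARRDC1 was at 0.35 and MLXIP at 0.27 on the log2 scale. With the GC trend removed TXNIP was at -0.47, ARRDC4 at -0.41 and TXNRD1 at -0.19. ARRDC3 (-0.15), ARRDC1 (0.10) and MLXIP (0.14) were then short of the threshold.

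Of the pathway genes, whose lists were also chosen with earlier results known, MXI1 was at -0.43, NFE2L2 at -0.31, ITCH at -0.22, HK2 at -0.20 and WWP1 at -0.17. TXNRD2 was at 0.47, TXNL4A at 0.33, KEAP1 at 0.33, MXD3 at 0.30, MXD4 at 0.28, PRDX5 at 0.21, PRDX2 at 0.20 and GPX4 at 0.19. With the GC trend removed MXI1 (-0.41), HK2 (-0.25) and NFE2L2 (-0.21) stayed past the threshold, the other 10 did not, and DDIT4 (-0.27) and TXNDC17 (0.34) came past it. Those 10 were then TXNRD2 (0.34), TXNL4A (0.33), MXD3 (0.13), MXD4 (0.09), KEAP1 (0.08), PRDX2 (0.07), PRDX5 (0.007), WWP1 (-0.03), ITCH (-0.10) and GPX4, which changed sign (-0.13). MXI1, NFE2L2, ITCH, TXNRD2 and MXD3 were called without any 1 library, and WWP1, TXNL4A, KEAP1, MXD4, PRDX5, PRDX2, GPX4 and HK2 lost their call without some library. Calls were lost without vehicle a (WWP1 -0.17, TXNL4A 0.34, PRDX5 0.17, GPX4 0.13), vehicle c (WWP1 -0.15, TXNL4A 0.31, PRDX2 0.18, GPX4 0.17, KEAP1 0.29), anastrozole a (WWP1 -0.15, MXD4 0.21, TXNL4A 0.31, GPX4 0.15, KEAP1 0.29), anastrozole b (WWP1 -0.17, TXNL4A 0.30), E2 a (TXNL4A 0.31, PRDX2 0.17, GPX4 0.17, KEAP1 0.28, HK2 -0.18), E2 b (TXNL4A 0.29, GPX4 0.20) or E2 c (WWP1 -0.145, GPX4 0.21). They were also lost without replicate a (TXNL4A 0.34, PRDX5 0.16), b (GPX4 0.15, HK2 -0.17) or c (WWP1 -0.15, TXNL4A 0.28, GPX4 0.20) of the libraries with both agents.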

How the results depend on the processing

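The 9 genes gave 987 values under alternatives (a description where vehicle enters), of which 900 stayed on their side of the threshold (some short of it changed sign by less than the SD between libraries), 58 lost a call, 19 gained one, 10 changed sign by more without a call and 0 called values reversed. For called pathway genes 545 of 723 were kept, 176 lost their call and 2 reversed, both GPX4 in the interaction with the GC trend removed (-0.13, and -0.13 with the replicate block). Against vehicle, the 5 calls of the 9 genes with anastrozole became 3 with filterByExpr, DESeq2 or the GC trend removed with or without block (2 of the 5, and TXN). They became 2 with limma-voom and ranged from 2 to 6 without 1 library. With DESeq2, MLXIP lost its call (adjusted p = 0.11) and ARRDC4 was given no adjusted p. DESeq2 also gave none for ARRDC4 between both agents and either alone, TXNRD2 for both against E2, or MYC for both against anastrozole. The 5 pathway calls became 3 with filterByExpr, 1 with DESeq2, 0 with limma-voom, 9 with all 12 libraries and 3 with the GC trend removed (MXI1, HK2 and DDIT4, and 3 with the block), and 1 to 10 without 1 library. For E2 the 14 pathway calls became 9 with limma-voom or with the GC trend removed and the block, and 9 to 16 without 1 library, and for both agents 6 became 3 with limma-voom. Between anastrozole and E2 the 1 call of the 9 genes was 0 with filterByExpr, DESeq2, limma-voom or the block and 0 to 2 without 1 library, and the 0 pathway calls were 1 with the GC trend removed (with or without block) and 0 to 4 without 1 library. For both agents against E2, limma-voom gave 1 call of the 9 and DESeq2, limma-voom and all 12 libraries 1 pathway call each, with 1 to 3 and 2 to 4 without 1 library. Against anastrozole the 9 genes gave 1 call with filterByExpr and 0 with limma-voom (1 to 2 without 1 library), and the pathway genes 1 with DESeq2 or limma-voom and 4 with the GC trend removed, with or without block (1 to 5 without 1 library). The interaction had 5 pathway calls with the GC trend removed, with or without block, and 8 to 18 without 1 library. Apart from the smaller fits without 1 library, the cause of these shifts was not tested. The labels do not say whether libraries with the same letter share more than that letter. Of 18 same-letter pairs 3 had a correlation of deviations over 0.1 (-0.195 to 0.184). Every library correlated best with its own letter only for both agents against vehicle (6 of 6), and whether these were handled together was not tested. With the replicate block TXNIP between anastrozole and E2 was 0.14 (adjusted p = 0.081), and calls over all genes went from 280 to 180 there, 776 to 823 for anastrozole, 2537 to 2207 for E2 and 1065 to 1439 for both agents. Over all genes, calls for anastrozole against vehicle ranged from 15 (limma-voom) to 1651, for E2 from 1379 to 2808, for both agents from 347 to 1592, between anastrozole and E2 from 70 to 515, for both agents against E2 from 186 to 1487 (1424 as counted), against anastrozole from 90 to 1706 (612 as counted), and in the interaction from 553 to 3202 (2295 as counted); 186 and 553 are with the GC trend removed. Depth limits ARRDC4 most, at 200 to 400 reads per library.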
